A study of Rattus norvegicus with 24 samples.

Results

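Myelin and oligodendrocyte genes were examined in RNA of laser microdissected thoracic propriospinal (TPS) neurons of the rat. The set was chosen by gene symbol and not by a cutoff on values, but with earlier results of these data known. It held 9 genes, Mbp, Mog, Mag, Mobp, Cnp, Cldn11, Aspa, Mal and Olig1. They are 9 of 14324 gene symbols with a probe of their own on the array, and 23240 probes, named and unnamed, were tested in all. A gene was represented by its probe, or by the probe with the highest mean where it had several. All 9 genes lay above the filter on dim probes.

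TPS neurons carry signals between segments of the spinal cord, and the study followed their response to axotomy. In female Long Evans rats, 77 ± 10 days old by the labels, these neurons were labelled with Fluoro-Gold, a retrograde tracer, from the lumbosacral enlargement. Groups of 4 animals were studied 3 days and 1 week after complete transection of the cord at T9, and groups of 2 animals 2 weeks and 1 month after it. Uninjured controls carried the same tracer and came in 3 groups of 4 animals, labelled as 4-day, 2-week and 1-month controls. By the methods, control survival was counted from the tracer injection and was longer than these names state, so the control names are labels and not exact times. The 3-day and 1-week transected groups were both set against the 4-day controls and so share them, while the 2-week and 1-month transected groups had controls of their own label. The methods give the 1-week transected animals a longer survival after the tracer than the 4-day controls, so this pair is not matched for it. Each of the 24 arrays held the RNA of neurons cut from the gray matter of the mid thoracic cord of 1 animal, rostral to the transection.

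Myelin is the membrane that oligodendrocytes wrap around axons in the central nervous system. Some of its proteins hold the membrane layers together, others join it to the axon or seal its edges, and enzymes of the same cell supply the lipid. Oligodendrocytes also lie as satellites against neuron cell bodies in the gray matter.

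Promoter sequence is shown for the 5 genes that passed the test in some comparison, since more than 1 of them passed each time. RefSeq windows of the GRCr8 build, reaching from 250 bases before the start of a gene to 50 bases after it, were found for 7 of the 9 genes, in 8 windows, and not for Mog and Olig1. The heptamers CTGGCAC and CTGGTAC, described as the core of the sites of the mouse oligodendrocyte factor MYRF, were searched on both strands. At least 1 of them stood in the windows of 4 of the 7 genes (Mag, Cnp, Cldn11 and Mal), and in 6.78% of the 33469 windows of all genes. The matches are in capitals in the following stretches of 60 bases around them, which run 5′ to 3′ on the strand of the gene.
Mag (chr1:95291105-95291164, minus strand): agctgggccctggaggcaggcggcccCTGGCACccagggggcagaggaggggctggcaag
Cnp (chr10:86011354-86011413, plus strand): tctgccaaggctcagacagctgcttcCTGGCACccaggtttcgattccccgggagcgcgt
Mal (chr3:135341516-135341575, minus strand): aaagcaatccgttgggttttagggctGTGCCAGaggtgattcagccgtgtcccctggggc
Cldn11 (chr2:114149626-114149685, minus strand): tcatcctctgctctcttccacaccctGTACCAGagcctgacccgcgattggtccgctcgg

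Counted from the start of the gene, the match covered bases -94 to -88 in Mag, -124 to -118 in Cnp, -126 to -120 in Mal and -120 to -114 in Cldn11. The longest run that the Mag and Cnp stretches had in common was 13 bases and held the match. Aspa had no MYRF match in its window. Its 250 bases before the start are given with the E-box letters CANNTG and the SOX letters ACAAAG and ACAATG in capitals, read on both strands.
Aspa (chr10:58439038-58439287, minus strand): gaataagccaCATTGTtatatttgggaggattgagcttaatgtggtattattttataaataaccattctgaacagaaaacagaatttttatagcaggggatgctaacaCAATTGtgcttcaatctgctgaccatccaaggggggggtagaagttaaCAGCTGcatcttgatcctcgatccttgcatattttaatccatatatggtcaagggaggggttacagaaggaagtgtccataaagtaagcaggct

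E-box letters stood in the windows of all 7 genes and in 72.1% of all windows, and the SOX letters in 5 of the 7 genes and in 29.1% of all windows. No E-box overlapped a SOX or MYRF match. These matches are descriptions of letters, and binding was not measured.

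The arrays were alike in overall brightness, with medians of 73.6 to 81.3 on the deposited linear intensity scale. The 4-day controls 3 and 4 stood apart, with limma quality weights of 0.33 and 0.48 against 0.62 to 1.66 for the other arrays. Neuronal genes were bright on the 12 control arrays, with log2 intensities of 12.10 to 12.41 for Snap25, of the synaptic release machinery, and 11.95 to 12.37 for Thy1, a neuronal surface protein. Markers of other cells were measured too. Aldoc and S100b of astrocytes ranged over 11.42 to 12.004 and 10.95 to 11.48, C1qc and Aif1 of microglia over 8.10 to 10.07 and 8.55 to 9.42, Rgs5 and Cldn5 of vessels over 10.00 to 10.62 and 9.52 to 10.02, and Pmp22 and Plp2 of Schwann cells over 8.33 to 9.32 and 5.98 to 7.43. No gene of any marker list lay at the floor of the deposited values, 17, on any array.

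The 9 genes differed in how far they varied. Over the 24 arrays the log2 intensity of Cldn11 spanned 1.68 and that of Aspa 1.15, while the other 7 genes spanned 0.53 for Mobp to 0.89 for Mag. Mbp, which has a second probe of lower mean (7.19), lay between 10.89 and 11.48 on the probe used. The 2 probes had a Pearson r of 0.66 over the arrays. Among all probes, Mbp stood at percentile 98.3, Mobp at 98.2, Mog at 96.0 and Mag at 92.2 over the 24 arrays. Olig1 was the lowest of the 9 genes, at 82.3. The paper describes its TPS sample as relatively pure and names a lack of Mag, Mog, Mbp and Gfap expression. It does not fully exclude microglial contamination, and also cites Cd163 and Aif1 as not upregulated. In the fit used here Aif1 rose by 0.63 at 3 days p.i. (adjusted p of 0.032 by limma). Gfap, an astrocyte marker, had a mean log2 intensity of 10.28 over the arrays. Which cells the RNA of these genes came from was not tested.

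At 3 days p.i., 2 of the 9 genes rose against the 4-day controls, Cldn11 and Aspa, and 7 did not pass the test. Over all probes 2.89% passed the same test in either direction and 2% were higher, a smaller share than 2 of 9. The median log2 difference was 0.12 over the 9 genes and -0.01 over all probes. Since the RNA came from many dissected cells, a change in the amount of a cell type and a change in RNA per cell cannot be told apart.

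Cldn11, the claudin that forms the tight junctions between myelin layers, had log2 intensities of 11.35, 10.79, 10.55 and 10.47 in the 3-day transected animals, against 9.97, 10.27, 9.67 and 10.11 in the 4-day controls. Every transected animal lay above every control, and transected animal 1 had the highest Cldn11 value of the 24 arrays. The group means were 10.79 ± 0.39 and 10.01 ± 0.26 (SD, n = 4 each), a log2 difference of 0.78 ± 0.15 (SE), or 1.72-fold, with an adjusted p of 0.0043 by limma. Cldn11 passed without any single array of the 8, with differences of 0.60 to 0.89. It did not pass when the 2 groups were fitted alone, with only 4-day controls 1 and 2, or by the methods' t-test.

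Aspa, the aspartoacylase that frees acetate from N-acetylaspartate for lipid synthesis, had log2 intensities of 10.14, 9.76, 9.70 and 9.76 in the 3-day transected animals. The 4-day controls had 8.99, 9.49, 9.04 and 9.47. The groups did not overlap, although the controls themselves split into a lower and a higher pair. The means of 9.84 ± 0.20 and 9.25 ± 0.27 (SD, n = 4 each) differed by 0.59 ± 0.14 (SE), or 1.51-fold, with an adjusted p of 0.0242 by limma. The call was lost without transected animal 1, without control 1 or without control 3, with a largest adjusted p of 0.094 over the arrays left out in turn, and in the 3 settings in which Cldn11 was lost. Cldn11 and Aspa were also the only 2 of the 9 genes whose groups did not overlap, against 5.51% of all probes.

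The other 7 genes gave overlapping groups at 3 days p.i. Mag, the adhesion molecule on the innermost myelin membrane, had log2 intensities of 9.88, 9.58, 9.45 and 9.59 in transected animals, against 9.35, 9.62, 9.09 and 9.45 in controls, a difference of 0.24 (95% confidence interval 0.03 to 0.46, adjusted p of 0.271 by limma). Mal, a proteolipid that carries lipid-rich membrane to the myelin sheath, differed by 0.26 (0.02 to 0.51, adjusted p = 0.303). Mobp, a small basic protein of compact myelin, differed by 0.12 (-0.07 to 0.31), and Mog, a surface protein of the outermost layer, by 0.01 (-0.20 to 0.22). The values were below 0 for Cnp, the cyclic nucleotide phosphodiesterase of noncompact myelin, at -0.07 (-0.33 to 0.18), for Mbp, the protein that holds the cytoplasmic faces of myelin together, at -0.17 (-0.40 to 0.06), and for Olig1, a transcription factor of the lineage, at -0.13 (-0.33 to 0.07).

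**Figure D1:**
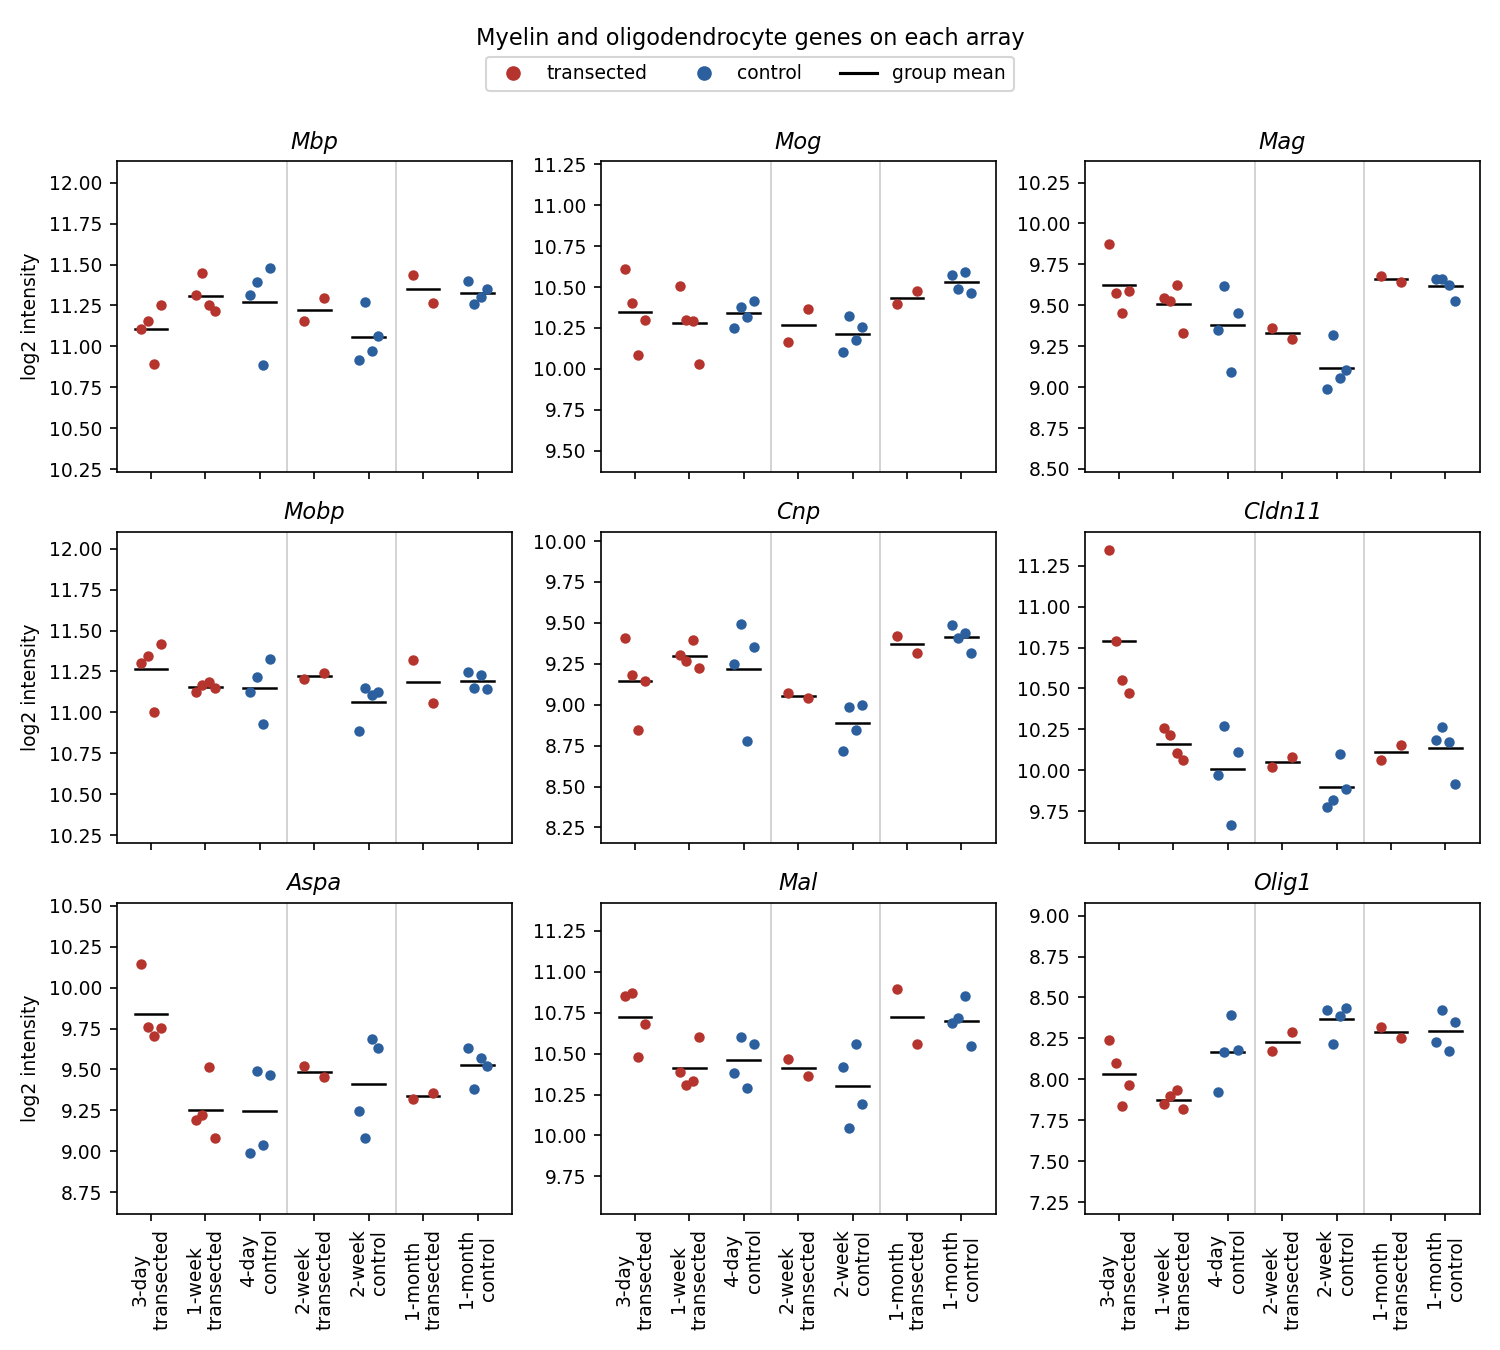
Log2 intensity of each of the 9 genes (1 panel per gene) on each of the 24 arrays, with transected animals in red, controls in blue and a bar at the mean of each group; all panels span the same number of log2 units. The 3-day transected animals stand above all 4-day controls for Cldn11 and Aspa, while the 1-month controls stand above all 2-week controls for Mag, Cnp and Mog.

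None of the 9 genes passed the test in the 1-week, 2-week or 1-month transected animals. Over all probes 0% passed at each of these times by limma. The probes below 0.05 before adjustment numbered 1031, 1229 and 799 in time order, and after Benjamini-Hochberg adjustment the methods' t-test gave 0, 0 and 2 calls. The median log2 difference of the 9 genes was 0.01 at 1 week, 0.15 at 2 weeks and -0.01 at 1 month.

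At 1 week p.i. Cldn11 had log2 intensities of 10.26, 10.22, 10.11 and 10.06, inside the range of the 4-day controls given above, and differed by 0.16 (95% interval -0.15 to 0.47). Aspa had 9.19, 9.22, 9.52 and 9.08, and differed from the controls by 0.00 (-0.29 to 0.30). The value farthest from 0 was that of Olig1, which ranged over 7.82 to 7.93 in transected animals and 7.92 to 8.39 in controls, a difference of -0.29 (-0.49 to -0.09) with an adjusted p of 0.999 by limma.

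At 2 weeks p.i., 8 of the 9 differences were above 0, and the highest was that of Mag at 0.21 (-0.05 to 0.48). The median over all probes was -0.0018. Genes of other cells and lists leaned the same way, with 14 of 18 other myelin proteins and 18 of 19 microglia and macrophage genes above 0. Of the lipid synthesis genes 3 of 10 were above 0, and of the neuronal genes 9 of 19. Cldn11 had log2 intensities of 10.02 and 10.08 in the 2 transected animals and 9.78, 9.82, 10.10 and 9.88 in the 2-week controls. The transected animals lay above all controls for Cnp, with 9.07 and 9.04 against 8.72, 8.98, 8.85 and 8.997, and for Mobp, with 11.21 and 11.24 against 10.89, 11.15, 11.10 and 11.12, and neither difference passed the test (adjusted p of 0.972 for both by limma). With only 2 transected animals groups can readily stand apart, and the share of all probes that did so was not counted.

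At 1 month p.i. the 2 transected animals and the 4 controls overlapped for 8 of the 9 genes. Cldn11 had 10.06 and 10.16 in transected animals and 10.19, 10.26, 10.17 and 9.92 in controls. Aspa had 9.32 and 9.36 against 9.63, 9.38, 9.57 and 9.52, below all controls, with a difference of -0.19 (-0.55 to 0.17). The share of all probes with groups apart was not counted here either. The 9 differences ran from -0.19 to 0.04. With 2 transected animals the interval of Cldn11, -0.40 to 0.35, still covered changes of that size in either direction.

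Averaged over the 4 times, transected against control, 0 of the 9 genes passed, while 0.404% of all probes did. Cldn11 had an averaged difference of 0.27 (0.08 to 0.46, adjusted p of 0.303 by limma) and Mag one of 0.16 (0.02 to 0.29, adjusted p = 0.444). Olig1 had the opposite sign, at -0.14 (-0.26 to -0.02, adjusted p = 0.46).

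**Figure D2:**
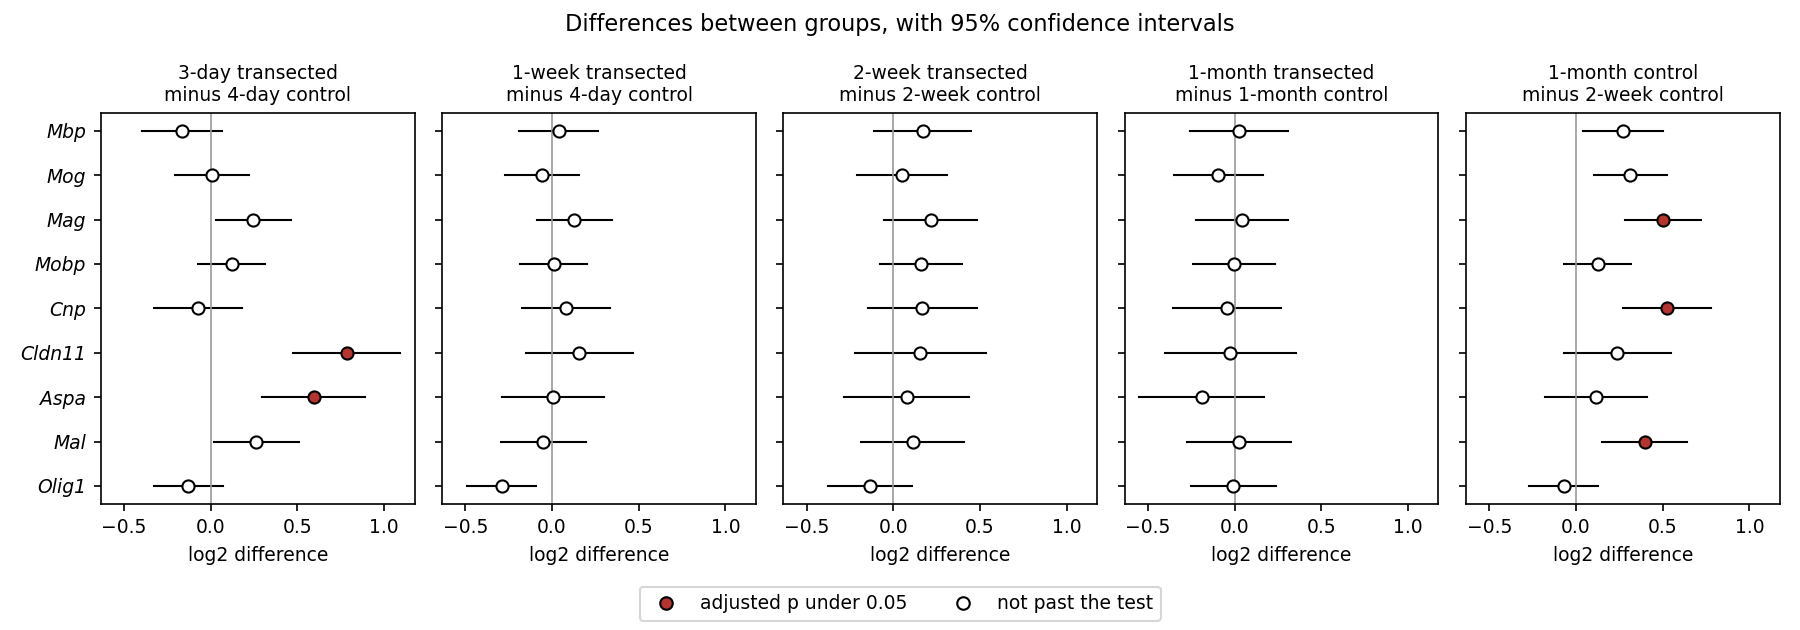
Log2 difference of each gene with its 95% confidence interval from limma, in 5 comparisons (panels); red points have an adjusted p under 0.05 and white points do not. Cldn11 and Aspa are red at 3 days p.i. (0.78 and 0.59), no gene is red at the later times, and Mag, Cnp and Mal are red between the 1-month and the 2-week controls (0.50, 0.53 and 0.40).

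The early values of Cldn11 and Aspa were also set directly against the later transected animals. Both fell between 3 days and 1 week p.i., Cldn11 by 0.63 ± 0.15 and Aspa by 0.59 ± 0.14 on the log2 scale (SE, n = 4 each, adjusted p of 0.0238 and 0.0273 by limma). In both genes every 1-week animal lay below every 3-day animal. The groups did not overlap for these 2 of the 9 genes, and for 6.68% of all probes in either direction. In this comparison 2.47% of all probes passed in either direction and 1.93% were lower at 1 week. It shares the 3-day animals with the comparison above and is no separate evidence of their height.

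The calls between 3 days and 1 week were sensitive to single animals. Both were lost without 1-week animal 2 or 5 or without 3-day animal 1 or 2, and each of the genes was lost without 1 further 1-week animal, Aspa without animal 1 and Cldn11 without animal 4. Both were also lost when the 2 groups were fitted alone, by the methods' t-test and with the replicate number as a block (adjusted p up to 0.383 over these settings).

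Whether the effect of transection itself differed between times was tested with each time set against its own controls. None of the 9 genes passed, either for the 2-week effect minus the 3-day effect or for the 1-month effect minus the 3-day effect, while 0.0904% of all probes passed in each. For Cldn11 these differences were -0.63 (-1.12 to -0.14) and -0.81 (-1.30 to -0.32), with adjusted p of 0.556 and 0.291 by limma. For Aspa they were -0.52 (-0.98 to -0.05) and -0.78 (-1.25 to -0.32), with adjusted p of 0.651 and 0.276. With all 12 controls pooled, Cldn11 passed in the 1-month minus 3-day comparison, at -0.68 with an adjusted p of 0.0423, in a fit where 354 of all probes passed above 0 and 447 below it.

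The control groups differed among themselves. In the 1-month controls against the 2-week controls, Mag, Cnp and Mal rose, and 6 of the 9 genes did not pass. This was the comparison with the most calls over all probes, where 10.2% passed in either direction and 6.18% were higher, a broad background for 3 of 9. The median log2 difference was 0.27 over the 9 genes, 8 of them above 0, and -0.05 over all probes.

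Mag had log2 intensities of 9.66, 9.66, 9.62 and 9.52 in the 1-month controls, against 8.99, 9.32, 9.05 and 9.10 in the 2-week controls. The 1-month controls lay above all 2-week controls and close together, with means of 9.62 ± 0.06 and 9.11 ± 0.14 (SD, n = 4 each). The difference was 0.50 ± 0.10 (SE), or 1.42-fold, with an adjusted p of 0.00924 by limma, and Mag passed without any single array and in all 11 other settings.

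Cnp had 9.49, 9.41, 9.44 and 9.32 in the 1-month controls, against 8.72, 8.98, 8.85 and 8.997 in the 2-week controls. These groups did not overlap either, and differed by 0.53 ± 0.12 (SE), or 1.44-fold, with an adjusted p of 0.0143 by limma. The call was lost only after cyclic loess normalization, with an adjusted p of 0.0544. Mal had 10.68, 10.72, 10.85 and 10.55 in the 1-month controls, against 10.42, 10.05, 10.56 and 10.19 in the 2-week controls. Its groups overlapped by a small margin and differed by 0.40 ± 0.12 (SE, adjusted p of 0.0375 by limma), a call that held without 2-week control 3 and was lost without any other single array. It was also lost after a further quantile normalization, after cyclic loess, with the compared groups alone and by the methods' t-test, with a largest adjusted p of 0.135.

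Mog was the third gene whose groups did not overlap, with 10.46 to 10.59 in the 1-month controls and 10.10 to 10.32 in the 2-week controls, in a comparison where 23% of all probes did not overlap. Its difference of 0.31 (0.10 to 0.53) had an adjusted p of 0.0521 by limma. Mog passed in 7 of the 11 other settings, among them the methods' t-test (adjusted p of 0.0415) and the replicate block (0.0419), and without 2-week control 2. Mbp differed by 0.27 (0.04 to 0.50), Cldn11 by 0.24 (-0.07 to 0.55), Mobp by 0.13 (-0.07 to 0.32), Aspa by 0.12 (-0.18 to 0.41) and Olig1 by -0.07 (-0.27 to 0.13).

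Against the 4-day controls, neither later control group gave a call among the 9 genes. Of all probes 0% passed in the 2-week controls (3315 were below 0.05 before adjustment, and the methods' t-test gave 0 calls) and 0.0043% in the 1-month controls. The 2-week controls gave -0.33 for Cnp (-0.59 to -0.08), -0.26 for Mag (-0.48 to -0.05) and -0.21 for Mbp (-0.44 to 0.02), and 0.20 for Olig1 (0.0017 to 0.40, adjusted p of 0.348 by limma). Without 4-day control 3 Cnp, Mag and Mbp passed, with adjusted p of 0.0122, 0.0414 and 0.0414 by limma, in a fit where 402 of all probes were higher and 886 lower. That array had the lowest values of its group for each of them, 8.78 for Cnp, 9.09 for Mag and 10.89 for Mbp. The 1-month controls lay above the 4-day controls in the mean of all 9 genes, by 0.04 to 0.28, with no call.

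Other genes of the oligodendrocyte were taken from lists. Over all probes 2.89% passed at 3 days p.i. in either direction and 2% were higher. Of 18 other myelin proteins with a probe, 1 rose and 1 fell. Cryab, a small heat shock protein also made in astrocytes, rose to 10.98 ± 0.18 in transected animals, against 10.46 ± 0.15 in controls (SD, n = 4 each, difference 0.52, adjusted p of 0.00325 by limma). Gpr37, a receptor of maturing oligodendrocytes, fell to 9.05 ± 0.18 in transected animals, against 9.70 ± 0.11 in controls (SD, n = 4 each, difference -0.66, adjusted p = 0.000401). Their groups did not overlap, and the list's median difference was -0.15.

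Of 16 other oligodendrocyte enzymes and transporters, 4 rose and 1 fell at 3 days p.i., where 2% of all probes were higher and 2.89% passed in either direction. Klk6, a secreted protease, was higher by 0.68, Slc44a1, a choline transporter, by 0.60, Gsn, the actin-severing gelsolin, by 0.58 and Tf, transferrin, by 0.38 (adjusted p of 0.00332, 0.00976, 0.00346 and 0.0315 by limma). Pex5l, a binding partner of peroxisomal targeting signals, fell to 8.60 ± 0.21 in transected animals, against 9.38 ± 0.21 in controls (SD, n = 4 each, difference -0.78, adjusted p of 0.001). The median of this list was -0.11, so members with opposite signs stood in one list.

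All 7 of these genes moved in the direction of the controls at 1 week. They were named for passing at 3 days and the comparison reuses the 3-day animals, so it is no separate evidence. In the 1-week minus 3-day transected comparison Klk6 fell by 0.67, Cryab by 0.61, Slc44a1 by 0.55, Gsn by 0.41 and Tf by 0.40, while Gpr37 rose by 0.42 and Pex5l by 0.49 (adjusted p of 0.0052, 0.00101, 0.0206, 0.0447, 0.0228, 0.0184 and 0.0393 by limma, in that order). Of 10 genes of myelin lipid synthesis, 4 oligodendrocyte transcription factors and 11 genes of oligodendrocyte precursors, none passed at 3 days p.i., with medians of -0.15, -0.02 and 0.08. With 2.89% of all probes passing, lists this short can readily hold no call. In the precursor list Vcan, the extracellular proteoglycan versican, fell by 0.76 between 3 days and 1 week p.i. (adjusted p of 0.0207 by limma). It was 1 of 11 genes, where 1.93% of all probes were lower.

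Between the 1-month and the 2-week controls, 4 of the 18 other myelin proteins rose and none fell, with a median of 0.26. They were Plekhb1, a membrane-binding protein (0.73), Tmem88b, a transmembrane protein (0.74), Gjb1, the connexin of oligodendrocyte gap junctions (0.54), and Cadm4, a cell adhesion molecule (0.36), with adjusted p of 0.00773, 0.0294, 0.0195 and 0.048 by limma. Of the 10 lipid synthesis genes 2 rose, Acly, which makes cytosolic acetyl-CoA, by 0.58 and Fa2h, which hydroxylates the fatty acids of myelin lipids, by 0.40 (adjusted p of 0.00205 and 0.0218). Acly ranged over 9.29 to 9.51 in the 1-month controls and 8.65 to 9.04 in the 2-week controls. Qdpr, an enzyme of biopterin recycling, was the 1 of 16 other enzymes and transporters that passed, at 0.69 (adjusted p of 0.02). None of the 4 transcription factors and none of the 11 precursor genes passed, with medians of 0.0042 and -0.02. Over all probes 10.2% passed in either direction and 6.18% were higher. The share of 1 in 16 was near the latter, and lists of 4 and 11 genes are too short to differ from it by holding no call.

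Genes of the axon that face the myelin sheath were taken as a list of their own. At 3 days p.i. none of 13 passed, with a median of -0.04, where 2.89% of all probes passed. Between the 1-month and the 2-week controls 10.2% of all probes passed in either direction and 6.18% were higher. In the 1-month controls against the 2-week controls 3 rose, Cntnap1, the axonal protein of the paranodal junction, by 0.56, Cntn2, an adhesion molecule of the juxtaparanode, by 0.44, and Scn8a, a sodium channel of the node of Ranvier, by 0.31, and Rtn4r, a receptor for myelin inhibitors of axon growth, fell by 0.28 (adjusted p of 0.00773, 0.0401, 0.0146 and 0.0447 by limma).

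**Figure D3:**
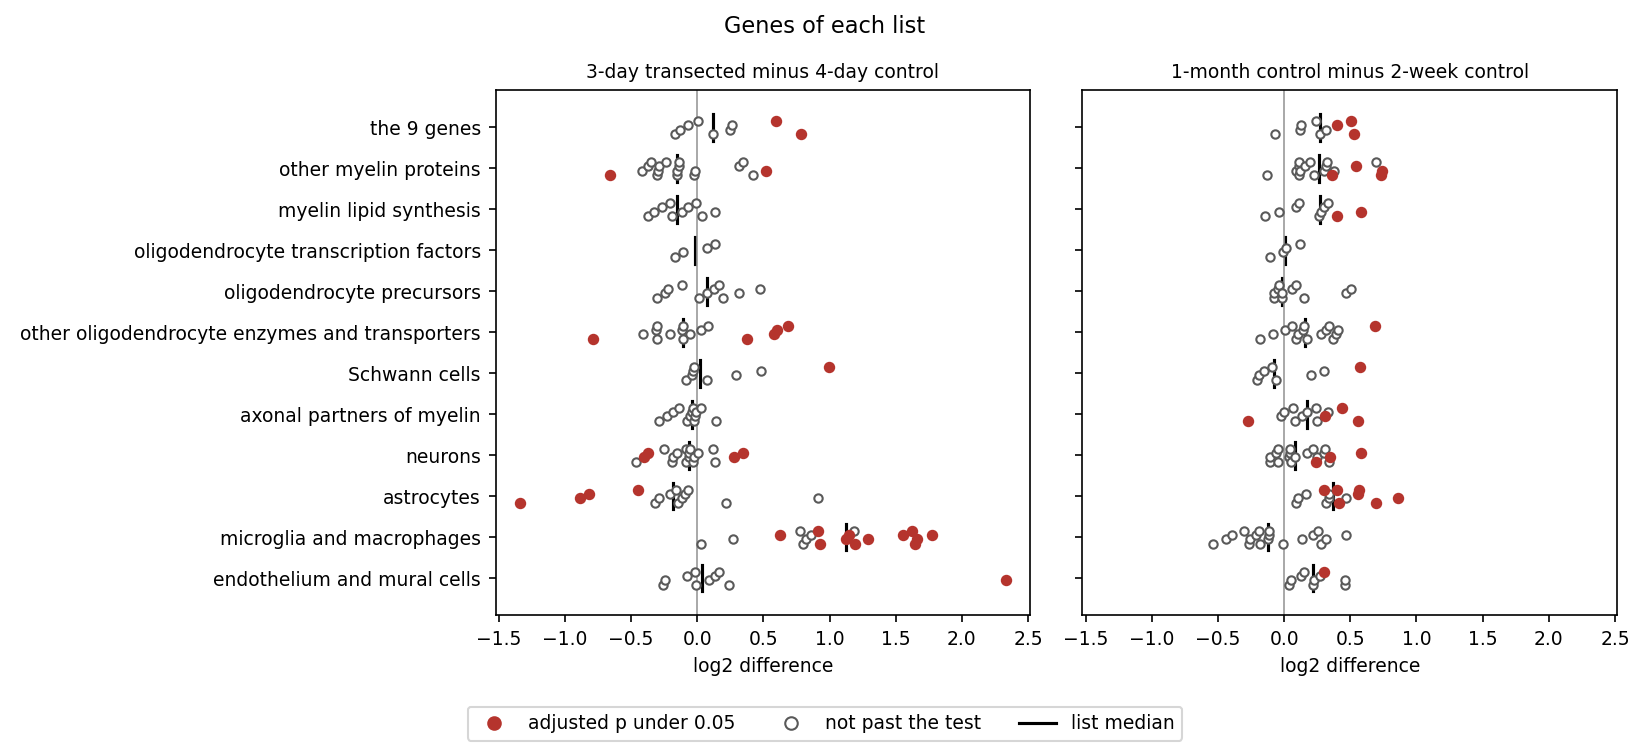
Log2 difference of each tested gene (points) in the 9 genes and in 11 other lists (rows), for the 3-day transected minus 4-day control comparison on the left and the 1-month minus 2-week control comparison on the right; red points have an adjusted p under 0.05 and bars mark list medians. On the left the microglia and macrophage list lies farthest to the right (median 1.12, against 0.12 for the 9 genes), and on the right the astrocyte list does (0.37, against 0.27).

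Markers of other cells moved in the same comparisons. Over all probes 2.89% passed at 3 days p.i. in either direction and 2% were higher. At 3 days p.i. 12 of 19 microglia and macrophage genes rose and none fell, with summed intensities of 8603 to 11832 in transected animals and 2719 to 7132 in the 4-day controls. Of 14 astrocyte genes 4 fell (Slc6a11, Kcnj10, Slc7a10 and Gjb6) and none rose, with sums of 15191 to 18048 and 14731 to 22618. Of 19 neuronal genes Tubb3 and Gap43 rose and Ina and Rbfox3 fell, of 10 genes of vessels Tagln rose by 2.33, and of 8 Schwann cell genes Plp2, which other cells also express, rose by 1.00. The 9 myelin genes themselves summed to 10197 to 13805 in transected animals and 9031 to 11752 in controls. At 1 week p.i., when neither Cldn11 nor Aspa passed the test, the microglia and macrophage sums were 6050 to 8415. None of these 19 genes passed, where 0% of all probes did. Their median log2 difference was 0.41, with 17 of 19 above 0, against 0.01 for the 9 myelin genes. The part of these cells in the values of Cldn11 and Aspa was not tested.

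Between the 1-month and 2-week controls 7 of 14 astrocyte genes rose and none fell, with sums of 18157 to 20512 in the 1-month controls and 14300 to 18453 in the 2-week controls. Of 19 neuronal genes Slc6a5, Tubb3 and Thy1 rose, with sums of 36594 to 37789 and 34037 to 35941. None of 19 microglia and macrophage genes passed (sums of 2986 to 3451 and 3061 to 3901). Cdh19, whose groups overlapped, passed among the 8 Schwann cell genes and Cldn5 among the 10 vessel genes, each with a higher value. The medians of these lists were -0.08 and 0.22. Over all probes 10.2% passed in either direction and 6.18% were higher, so the calls in both lists were near that share. The 9 myelin genes summed to 11184 to 12092 in the 1-month controls and 9053 to 10122 in the 2-week controls, and the part of the other cells in this difference was not tested.

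The 9 genes varied together over the 24 arrays, with Olig1 apart. Of 36 gene pairs 30 had a Pearson r above 0, with a median of 0.46, and 18 pairs had a permutation p under 0.05 after Benjamini-Hochberg adjustment over the 36, 12 of them for Spearman's rho too. The pair with the highest r was Mag and Cnp (r = 0.85, rho = 0.85, adjusted permutation p of 0.00018 and 0.00036, both resting on the smallest p that 100000 permutations can give). Without the 2 arrays farthest from the median of Mag, r was 0.78, and for deviations from the group means it was 0.90. Mbp and Cnp had an r of 0.81 and a rho of 0.68 (adjusted permutation p of 0.00018, which rests on that smallest p too, and 0.00324). Cldn11 and Aspa had an r of 0.73 and a rho of 0.56 (adjusted permutation p of 0.00108 and 0.0181), and r was 0.53 without the 2 arrays farthest from the median of Cldn11.

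The median r of a gene with the other 8 was highest for Mag (0.62) and Cnp (0.56) and lowest for Olig1 (-0.19), while Mbp had an r of 0.00 with Cldn11 and -0.15 with Aspa. Over deviations from the group means the median over pairs was 0.41, so the genes also varied together between animals of the same group. The arrays were normalized together, and differences in RNA input or in the cells cut are shared by all genes of an array.

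**Figure D4:**
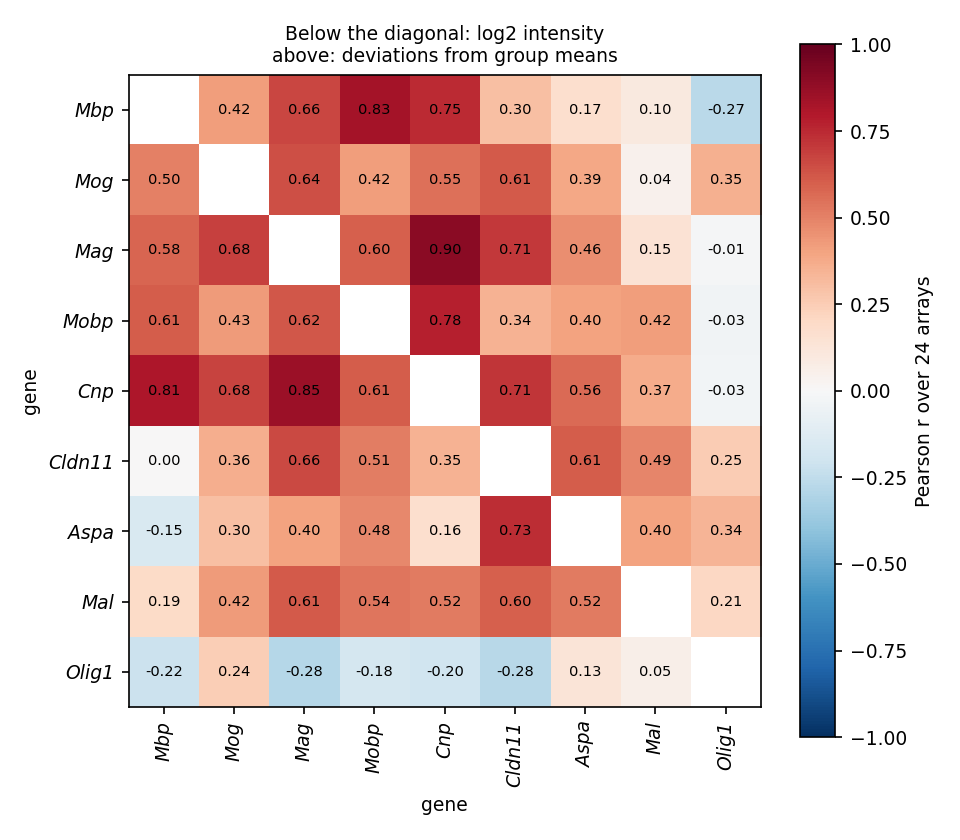
Pearson r between the log2 intensities of the 9 genes over 24 arrays (below the diagonal) and between their deviations from the group means (above), coloured from -1 in blue to 1 in red. Mag and Cnp are the darkest pair (0.85 and 0.90), and the row of Olig1 is pale or blue (-0.28 to 0.24).

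By array, the mean of the 9 genes, each centred on its own mean, was highest in 3-day transected animal 1 at 0.35 and lowest in 4-day control 3 at -0.26 on the log2 scale. The 1-month controls were all above 0, at 0.15, 0.12, 0.14 and 0.05, and the 2-week controls all below it, at -0.25, -0.17, -0.09 and -0.11. The 3-day transected animals scattered on both sides, at 0.35, 0.16, -0.10 and 0.10, as did the 4-day controls at -0.13, 0.10, -0.26 and 0.07. The SD within groups was 0.12.

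Of 13697 other single-symbol genes, those whose log2 values followed this mean most closely over the 24 arrays were Yae1 (r = 0.86), Elovl2, an elongase of very long fatty acids, Med13, a subunit of the Mediator complex, Vamp8, a protein of vesicle fusion, Dazap2, Septin10, Adam9, a membrane protease, Actn4 and Actg1, which are an actin crosslinker and an actin, and Rpn2, of the glycosylation machinery (r = 0.82). None of these 10 belongs to the oligodendrocyte lists. The 59 genes of the 5 other oligodendrocyte lists had a median r of 0.34 with the mean, against 0.03 over all 13697 genes, and the medians were 0.40 for astrocytes, 0.39 for microglia and macrophages, 0.49 for vessels and 0.06 for neurons.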

How the data were processed

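The 24 arrays (Affymetrix Rat Gene 1.0 ST) each held RNA of TPS neurons laser microdissected from 1 animal. The deposited intensity values had been made by the authors with RMA and quantile normalization in GeneSpring GX, on a linear scale with a floor of 17. The labels name the WT Ovation Pico kit for amplification and the methods another Ovation kit. Versions are not given in the sources used here. Values were turned to log2. Of 27342 probes, the 15% with the lowest mean (log2 below 5.05, intensity below 33.2) were left out, which left 23240. GEO's platform annotation gave 15097 probes 1 gene symbol, 323 several and 11922 none.

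A model of 7 group means was fitted to all 24 arrays with limma 3.58.1 in R 4.3.3 (lmFit and eBayes, 17 residual and 3.64 prior degrees of freedom), and p-values were adjusted by Benjamini-Hochberg over all tested probes of a comparison, with a threshold of 0.05. The methods' t-test and 2-factor ANOVA were run on the same values as alternatives, next to other filters, normalizations, moderation, array weights, probe choices, fits of the compared groups alone, pooled controls, a block for the replicate number, and fits without each array in turn. The limma code was tested on simulated data. Correlations used permutation tests in Python 3.11.15. Promoters came from RefSeq (GRCr8) and sequences were matched by symbol.

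The genes and lists were chosen with earlier results of these data known. All 9 genes were named, and of every other list up to 4 genes per comparison by smallest p, the 10 genes most like the mean of the 9, and the 2 brightest markers of each other cell type. Tf and, at 1 week, Gsn were named beyond this rule after their values were seen. The number of arrays limits the precision, most at 2 weeks and 1 month p.i. with 2 transected animals.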

Additional observations from a re-analysis of the deposited data

Results flagged for a closer look

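A single array stood apart from its group in 2 of 45 gene and group combinations of 4 arrays by Dixon's criterion, where chance gives about 5%. Aspa in 3-day transected animal 1 was at a log2 intensity of 10.14, with the other 3 animals at 9.70 to 9.76, and the 3-day call of Aspa was lost without this animal. Mobp in 2-week control 1 was at 10.89, with the other 3 controls at 11.10 to 11.15, and no call of Mobp rests on it.

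Transected animals differed between times for 2 of the 9 genes. The 1-week minus 3-day log2 difference was -0.63 for Cldn11 (adjusted p of 0.0238 by limma) and -0.59 for Aspa (adjusted p of 0.0273), with all 4 animals at 1 week below all 4 at 3 days. Neither gene differed past the threshold between the effects of transection at 3 days and at the 2 later times, each set against its own controls.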

How the results depend on the processing

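For 3-day transected animals against 4-day controls, 2 genes passed, and 0 did with the compared groups alone, by the methods' t-test or with only 4-day controls 1 and 2. Leaving out single arrays gave 1 to 2. For 1-week against 3-day transected animals, 2 passed, and 0 did with the compared groups alone, by the methods' t-test or with the replicate block, and 0 to 2 without single arrays. The count for the 1-month minus 3-day effect was 0, and 1 with all 12 controls pooled. For 2-week against 4-day controls it was 0, 1 with array quality weights, 1 with only 4-day controls 1 and 2 (Cnp in both), and 0 to 3 without single arrays. For 1-month against 2-week controls it was 3, then 5 with array quality weights (Mbp and Mog added, among 2734 higher and 2670 lower probes) and 1 after cyclic loess (Mag). It was 2 to 4 in the other settings, and 2 to 3 without single arrays. No difference that passed changed sign in any setting run. The causes of these changes were not tested.

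Same-numbered animals of different groups had a mean r of 0.02 between their deviations from group means (55 pairs), against -0.01 for other pairs (189), so the numbers do not pair the animals. Between the 1-month and 2-week controls the replicate block gave 4 calls in place of 3, with Mog added (adjusted p of 0.0419 by limma). Between the 1-week and 3-day transected animals the calls of Cldn11 and Aspa were lost with it.

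Counts over all probes moved as well. At 3 days p.i. 465 were higher and 206 lower, against 21 and 1 with the compared groups alone, 0 and 0 by the methods' t-test, 210 and 76 with only 4-day controls 1 and 2, and 1208 and 909 with all 12 controls pooled. For 1-week against 3-day transected animals 126 were higher and 448 lower, against 37 and 222 with the compared groups alone, 0 and 0 by the methods' t-test, 78 and 317 with the replicate block, and 237 and 442 after a further quantile normalization. For 1-month against 2-week controls 1436 were higher and 930 lower, against 599 and 518 after cyclic loess, and 468 and 146 without 2-week control 3.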
